A study of Homo sapiens with 15 samples.

Results

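The replication-dependent histone genes encode the linker histone H1 and the core histones H2A, H2B, H3 and H4 that package newly made DNA. They were taken here as the protein-coding genes named H1-1 to H1-6, or H2AC, H2BC, H3C or H4C with a number. The rule found 70 genes among the 62754 Ensembl gene IDs of the table: 6 for H1, 17 for H2A, 19 for H2B, 13 for H3 and 15 for H4. On GRCh38, 55 lie on chromosome 6, 13 on chromosome 1, 1 on chromosome 12 and 1 on chromosome 21. The cells were NCI-H69, an established line of human origin from a neuroendocrine small cell lung cancer of the classic kind. The 3 groups were H69 cells given FB23-2, H69 cells given CS2 (also known as brequinar, a DHODH inhibitor), and H69 cells given DMSO, with 3 libraries each. The series names both compounds as inhibitors of FTO, an enzyme that removes m6A methyl marks from RNA, and calls the libraries biological replicates. All groups come from a single cell line, and neither doses nor treatment times were known, so differences between the compounds are differences between these labelled groups and not between matched doses.

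As background, these genes lack introns in their usual form and are switched on together when cells enter S phase, through NPAT and gene-specific factors. Their usual mRNA carries no poly(A) tail. It ends in a short stem-loop that the protein SLBP binds for processing, translation and decay. Many of the same genes can also give longer, polyadenylated transcripts that run past the stem-loop, for example in differentiated cells.

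The libraries were made with a kit for mRNA, per the labels' protocols, and such kits usually select poly(A) tails. Where tails are selected, transcripts that end at the stem-loop are captured incompletely. Neither the selection nor the capture was measured here. The values below are levels in these libraries and need not follow the histone mRNA of the cells. The members took from 0.0341% to 0.0384% of the counts of an FB23-2 library, from 0.0230% to 0.0238% of a CS2 library and from 0.0475% to 0.0522% of a DMSO library. Of 14 further RNAs known to lack a poly(A) tail, 2 had enough counts for a test (RN7SL1 and RMRP) and neither was called with all 9 libraries. Without CS2 replicate 3, RN7SL1 was called lower with CS2 than with DMSO (-0.60) and higher with FB23-2 than with CS2 (0.92), this second call also with the replicate block and GC and length correction together (0.88). Those 14 summed to 13.9, 14.3 and 23.1 CPM (counts scaled to the library's effective size) in the FB23-2 libraries, 10.6, 7.48 and 17.5 CPM in the CS2 libraries and 14.3, 15.3 and 12.0 CPM in the DMSO libraries, so the groups overlapped. The overlap of CS2 with the others rests on CS2 replicate 3, at 17.5 CPM, and the other CS2 libraries lay below every FB23-2 and DMSO library.

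The stem-loop was looked for within 150 bases of the stop codon in the transcripts of GENCODE release 29 and was found in 31 members. The other members need not lack it. Many annotated transcripts end at the stop codon, as for H1-2 and H2BC12, and leave nothing to search. None was found in H2BC11 either, where the longest annotated run past the stop codon is 569 bases. The 7 stretches below show it in genes that carry the main results, 5′ to 3′ on the gene's own strand, with its 16 bases in capitals.
H2AC6, chr6:26124664-26124689: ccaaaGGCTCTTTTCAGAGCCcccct
H2AC25, chr1:228457364-228457389: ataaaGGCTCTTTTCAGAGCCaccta
H2BC5, chr6:26158582-26158607: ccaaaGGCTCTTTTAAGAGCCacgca
H2BC21, chr1:149886183-149886208: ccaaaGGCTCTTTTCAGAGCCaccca
H2BC26, chr1:228458533-228458558: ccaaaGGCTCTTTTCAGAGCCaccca
H3C6, chr6:26225591-26225616: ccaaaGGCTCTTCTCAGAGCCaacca
H4C8, chr6:26285126-26285151: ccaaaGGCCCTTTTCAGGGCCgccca
The H2A, H2B and H3 genes in this set share the arms GGCTCT and AGAGCC. H2AC6, H2AC25, H2BC21 and H2BC26 also share the loop, which differs in H2BC5 and in H3C6, and H4C8 has the arms GGCCCT and AGGGCC. The annotated transcript went on past the stem-loop for 1128 bases in H2AC6, 390 in H2AC25, 39 in H2BC5, 1729 in H2BC21, 1917 in H2BC26, 1862 in H3C6 and 1655 in H4C8. The value of H2BC5 is that of the transcript that holds the stem-loop. Another annotated H2BC5 transcript runs 384 bases past the stop codon, so H2BC5 counts below as a gene with a longer form. H2BC26, whose stem-loop stretch is the same as that of H2BC21 in all 26 bases, is the only member whose rise passed the test described below with both compounds.

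Total counts per library ran from 29916267 to 45022633, so that 3 counts were worth from 0.0666 to 0.100 CPM. Counting intervals and this floor cover counting error only. The neuroendocrine marker CHGA was high in every library, between 404 and 624 CPM. The blood marker CD3E and the fibroblast marker DCN had no count in any library. Other markers of cells not expected in the line were counted: the blood marker PTPRC averaged 0.696 CPM with FB23-2, 0.736 CPM with CS2 and 1.54 CPM with DMSO, and the endothelial marker VWF 0.175 CPM with FB23-2, 0.355 CPM with CS2 and 2.07 CPM with DMSO. The fibroblast marker COL1A2 had 9.59 to 53.8 CPM. PTPRC, VWF and COL1A2 were called lower than in DMSO with both compounds, as many histone members were. The fibroblast marker COL1A1 was not. It averaged 0.994 CPM with FB23-2, 0.441 CPM with CS2 and 0.538 CPM with DMSO. COL1A1 was called higher with FB23-2, at a log2 fold change of 0.88, and was not called with CS2, at -0.27. The part of these markers in the histone result was not tested. FB23-2 replicate 2 stood apart from its group: 11% of its counts came from mitochondrial genes, against 6.83% and 6.91% in the other FB23-2 libraries. Results that rest on it are given with and without it. A gene was called higher or lower where its edgeR p, adjusted by Benjamini and Hochberg's method across 19781 tested genes, was under 0.05, and fold changes are log2 differences with their standard error (SE).

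Of the 70 members, 42 had enough counts to be tested. The other 28 reached at most 20 counts in a library, and H3C3 and H4C13 had none. None of the 42 tested members reached the filter's level of 0.297 CPM in the libraries of a single group only.

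Summed over all 70 members, the level was lower in both treated groups than with DMSO, and lower with CS2 than with FB23-2. The sum was 328.6, 404.9 and 377.6 CPM with FB23-2, 235.9, 234.2 and 231.3 CPM with CS2, and 525.5, 474.5 and 491.4 CPM with DMSO. The 3 groups did not overlap. The means were 370.4 ± 38.6 CPM with FB23-2, 233.8 ± 2.30 CPM with CS2 and 497.1 ± 26 CPM with DMSO (SD, n = 3 each), that is 0.745 of the DMSO mean with FB23-2 and 0.470 of it with CS2. Without FB23-2 replicate 2 the log2 difference of FB23-2 from DMSO was -0.50, against -0.43 with it. These sums carry no test. In bulk RNA, fewer cells in S phase and less histone mRNA in each such cell cannot be told apart. Neither can be told apart from a change in the share of histone mRNA that was captured, which was not measured.

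The 5 histone types did not move in the same proportion. The H2A sum was 56.9, 64.6 and 66.0 CPM with FB23-2, 33.1, 31.8 and 34.9 CPM with CS2 and 87.7, 81.5 and 84.6 CPM with DMSO. H2B, which took 53.6% of all member reads, summed to 169.6, 220.8 and 204.5 CPM with FB23-2, 125.7, 127.9 and 115.4 CPM with CS2 and 278.8, 257.3 and 268.9 CPM with DMSO. The H1 sum, nearly all of it H1-2, was 77.2, 92.8 and 78.2 CPM with FB23-2, 48.0, 44.0 and 53.3 CPM with CS2 and 116.4, 96.4 and 100.4 CPM with DMSO. For H1, H2A and H2B, CS2 libraries were the lowest and DMSO libraries the highest, with no overlap between groups. H3 had another order: 11, 11.7 and 14.2 CPM with FB23-2, 15.4, 15.4 and 15.1 CPM with CS2 and 24.9, 22.1 and 21.8 CPM with DMSO. Here FB23-2 libraries were the lowest, at 0.537 of the DMSO mean, while CS2 libraries were at 0.668 of it. Much of the H3 sum was H3C6: on average 5.32 of 12.3 CPM with FB23-2, 7.29 of 15.3 CPM with CS2 and 11.7 of 22.9 CPM with DMSO. Between the compounds, 2 of 7 tested H3 genes were called lower with FB23-2 and 5 were not called. H4 differed least, with 13.8, 15.1 and 14.7 CPM with FB23-2, 13.7, 15.1 and 12.6 CPM with CS2 and 17.7, 17.2 and 15.8 CPM with DMSO. H4 libraries of the compounds overlapped each other and lay below all DMSO libraries.

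**Figure D1:**
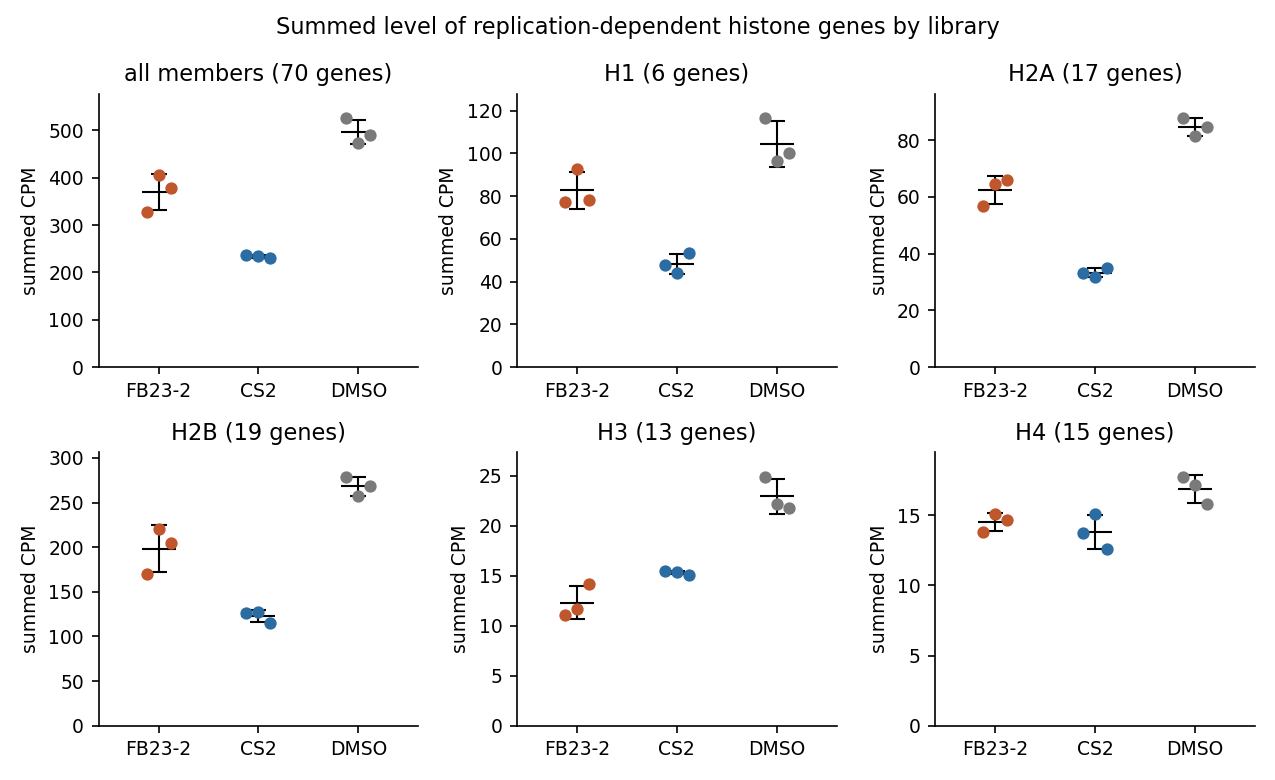
Summed CPM of all 70 members and of each histone type, with a point for each of 9 libraries and the mean and SD of each group as bars; groups are FB23-2, CS2 and DMSO from left to right, and every axis starts at 0. CS2 libraries are the lowest for all members, H1, H2A and H2B, whereas FB23-2 libraries are the lowest for H3.

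With CS2, histone genes were mostly lower than with DMSO: 22 of the 42 tested members fell, 1 rose and 19 were not called. Over all genes tested, 25.3% fell and 24.3% rose (49.7% called), against 52.4% and 2.38% of the tested members. The median log2 fold change of the tested members was -0.56, beside 0.00 for all genes tested. By type, 1 of 3 tested H1 genes, 5 of 11 H2A genes, 9 of 13 H2B genes, 4 of 7 H3 genes and 3 of 8 H4 genes fell. The 1 member that rose, H2BC26, encodes H2B. With FB23-2, 16 members fell, 3 rose and 23 were not called, that is 38.1% lower and 7.14% higher. Over all genes, 26.7% fell and 25.4% rose with FB23-2 (52.0% called), and the members' median was -0.38, beside 0.00 for all genes. By type, 1 of 3 H1 genes, 4 of 11 H2A genes, 5 of 13 H2B genes, 5 of 7 H3 genes and 1 of 8 H4 genes fell with FB23-2, and H1-3, H2BC5 and H2BC26 rose. Without FB23-2 replicate 2 the counts were 17 lower and 2 higher. The 3 higher members became 1 without DMSO replicate 1 or 3, and the 1 higher with CS2 became 2 without CS2 replicate 3. The member added there was not among the 42 tested with all 9 libraries, and its call is not used here. Both comparisons use the same DMSO libraries, so the calls they share are not independent; 14 members were called lower in both.

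**Figure D2:**
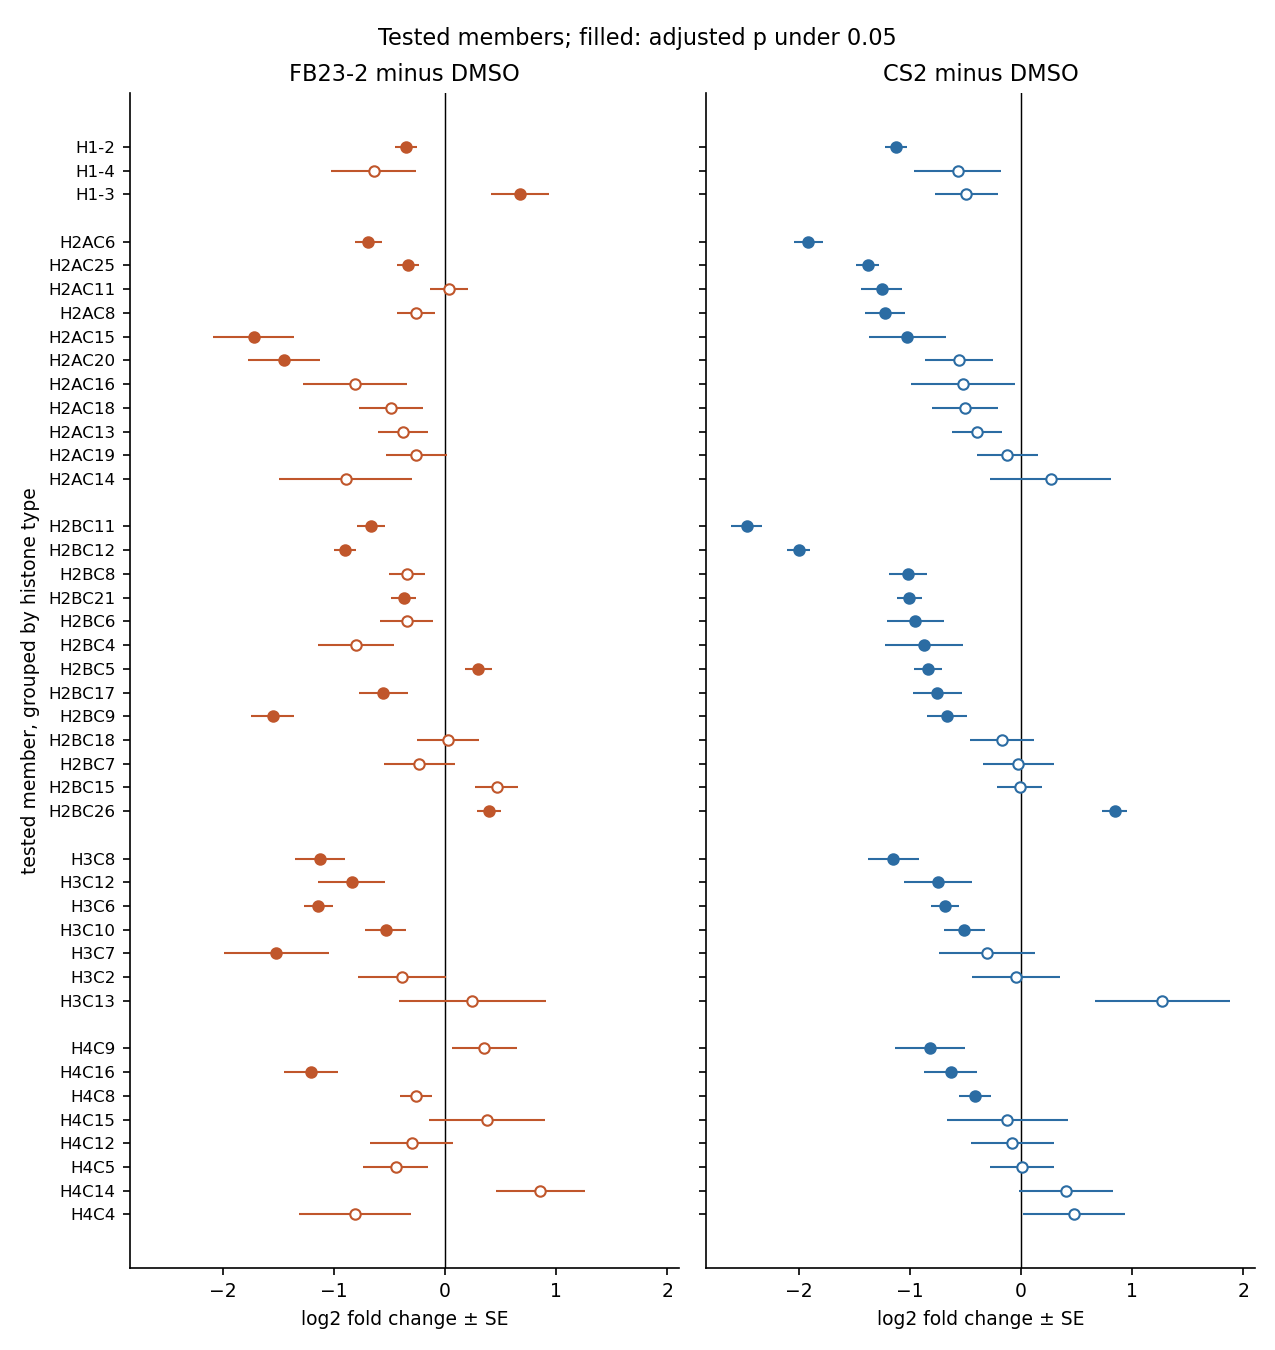
Log2 fold change with its SE (horizontal bars) of the 42 tested members for FB23-2 minus DMSO on the left and CS2 minus DMSO on the right, grouped by histone type and ordered within a type by the CS2 value; filled points have an edgeR adjusted p under 0.05. H2BC11 and H2BC12 are the lowest with CS2 at -2.47 and -2.0, and H2BC26 lies to the right of 0 in both panels.

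H1-2, a linker histone that binds DNA between nucleosomes, held most H1 reads. It had 74.4, 89.2 and 76.0 CPM with FB23-2, 45.9, 42.7 and 51.3 CPM with CS2 and 114.0, 93.6 and 98.1 CPM with DMSO. The 3 groups did not overlap, and CS2 was the lowest. The log2 fold change was -1.13 with CS2 (SE 0.10, edgeR adjusted p = 1.49e-08) and -0.35 with FB23-2 (SE 0.10, edgeR adjusted p = 0.00467). The smaller of the 2 was not called after correction for GC content and length, at -0.08. H1-3, another linker histone, had 2.42, 2.42 and 1.66 CPM with FB23-2, 1.21, 0.637 and 1.03 CPM with CS2 and 1.11, 1.56 and 1.42 CPM with DMSO. It was the only H1 gene higher with FB23-2 than with DMSO, by 0.67 on the log2 scale (SE 0.26, edgeR adjusted p = 0.036), and the call was lost without FB23-2 replicate 1 (0.61) or 2 (0.59) or DMSO replicate 1 (0.55) or 3 (0.71), and with DESeq2 (0.68). With CS2 its difference from DMSO was -0.49 (SE 0.28), which was not called. H1-4 was not called with either compound, at -0.57 with CS2 (SE 0.39) and -0.64 with FB23-2 (SE 0.39), but without FB23-2 replicate 2 it was called lower with FB23-2 at -1.15. H1-5 had at most 14 counts in a library and was not tested.

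Among H2A genes, which encode the partner of H2B in the nucleosome's outer dimers, H2AC6 fell furthest with CS2. It had 14.2, 18.2 and 19.7 CPM with FB23-2, 6.63, 7.92 and 7.85 CPM with CS2 and 29.6, 28.0 and 26.7 CPM with DMSO. These groups did not overlap, and the log2 fold change was -1.91 with CS2 (SE 0.13, edgeR adjusted p = 3.63e-10) and -0.69 with FB23-2 (SE 0.12, edgeR adjusted p = 7.46e-05). H2AC25 showed the same order, with 27.6, 28.3 and 28.4 CPM with FB23-2, 14.3, 11.8 and 14.6 CPM with CS2 and 38.7, 32.3 and 35 CPM with DMSO. Its log2 fold change was -1.38 with CS2 (SE 0.11, edgeR adjusted p = 2.51e-09) and -0.33 with FB23-2 (SE 0.10, edgeR adjusted p = 0.00998). The FB23-2 call of H2AC25 was lost without DMSO replicate 1, at -0.26, and after correction for GC content and length, at -0.08. H2AC8 and H2AC11 fell with CS2, at -1.23 (SE 0.18) and -1.26 (SE 0.19) on the log2 scale, and were not called with FB23-2, at -0.26 (SE 0.17) and 0.04 (SE 0.17).

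H2AC20 and H2AC15 had lower values with FB23-2 than with CS2, a difference that was not called for H2AC15 (-0.70, 95% interval -1.53 to 0.13). H2AC20 had 0.507, 0.767 and 0.350 CPM with FB23-2, 0.973, 0.704 and 1.40 CPM with CS2 and 1.40, 1.53 and 1.60 CPM with DMSO. Every FB23-2 library lay below every DMSO library, and the log2 fold change was -1.45 (SE 0.32, edgeR adjusted p = 0.000883). CS2 libraries overlapped DMSO for H2AC20, at -0.56 (SE 0.31), which was not called. H2AC15 fell with both compounds, at -1.72 with FB23-2 (SE 0.36, edgeR adjusted p = 0.000553) and -1.02 with CS2 (SE 0.35, edgeR adjusted p = 0.0196). The CS2 call was lost without CS2 replicate 1 (-0.85) or DMSO replicate 2 (-0.93) or 3 (-1.03), and with DESeq2 (-1.02). All 50-base windows of the H2AC15 transcript, and 30.5% of those of H2AC20, also occur in other genes, so their reads could be split differently by another counting rule.

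H2B genes held the largest changes. H2BC12 had 53.0, 67.7 and 69.4 CPM with FB23-2, 31.6, 26.9 and 30.2 CPM with CS2 and 122.1, 114.4 and 118.4 CPM with DMSO. The groups were far apart, with a log2 fold change of -2.0 with CS2 (SE 0.10, edgeR adjusted p = 8.81e-12), a 4.0-fold difference, and -0.90 with FB23-2 (SE 0.10, edgeR adjusted p = 2.45e-07). Of the 50-base windows of its coding sequence, 74.1% also occur in other histone genes, and its level is uncertain to that extent. H2BC11, of which 4.65% of windows are shared, had 12.3, 17.8 and 14.2 CPM with FB23-2, 4.04, 4.13 and 4.52 CPM with CS2 and 25.1, 22.7 and 22.5 CPM with DMSO. Its log2 fold change of -2.47 with CS2 (SE 0.14, edgeR adjusted p = 4.06e-11), a 5.54-fold difference, was the lowest of all tested members, and that with FB23-2 was -0.66 (SE 0.13, edgeR adjusted p = 0.000182). H2BC21 had 36.2, 51.3 and 46.0 CPM with FB23-2, 28.0, 31.7 and 26.5 CPM with CS2 and 60.5, 52.5 and 59.8 CPM with DMSO. It fell by 1.01 with CS2 (SE 0.11, edgeR adjusted p = 5.36e-07) and by 0.37 with FB23-2 (SE 0.11, edgeR adjusted p = 0.00908), and the FB23-2 call was lost without FB23-2 replicate 1, at -0.23.

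H2BC5 was the only member called in opposite directions by the compounds. It had 30.8, 47.1 and 38.1 CPM with FB23-2, 16.7, 18.6 and 17.4 CPM with CS2 and 32.8, 30.1 and 31.3 CPM with DMSO. CS2 libraries lay well below the rest, at -0.84 against DMSO (SE 0.12, edgeR adjusted p = 1.24e-05). FB23-2 libraries overlapped DMSO, and the value of 0.30 (SE 0.12, edgeR adjusted p = 0.0406) was not called without FB23-2 replicate 2 (0.14) or 3 (0.33) or without DMSO replicate 1 (0.33), 2 (0.27) or 3 (0.30). H2BC9 went further with FB23-2: it had 2.18, 1.39 and 2.10 CPM with FB23-2, 3.89, 3.29 and 3.19 CPM with CS2 and 5.66, 5.53 and 5.31 CPM with DMSO. The 3 groups of H2BC9 were apart, with a log2 fold change of -0.67 with CS2 (SE 0.18, edgeR adjusted p = 0.00507) and -1.55 with FB23-2 (SE 0.19, edgeR adjusted p = 1.43e-06). H2BC26 had 21.7, 21.3 and 19.6 CPM with FB23-2, 29.4, 31.9 and 24.1 CPM with CS2 and 16, 15.8 and 15.9 CPM with DMSO. Every treated library lay above every DMSO library, and the gene rose by 0.84 with CS2 (SE 0.11, edgeR adjusted p = 2.82e-06) and by 0.39 with FB23-2 (SE 0.11, edgeR adjusted p = 0.00516).

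**Figure D3:**
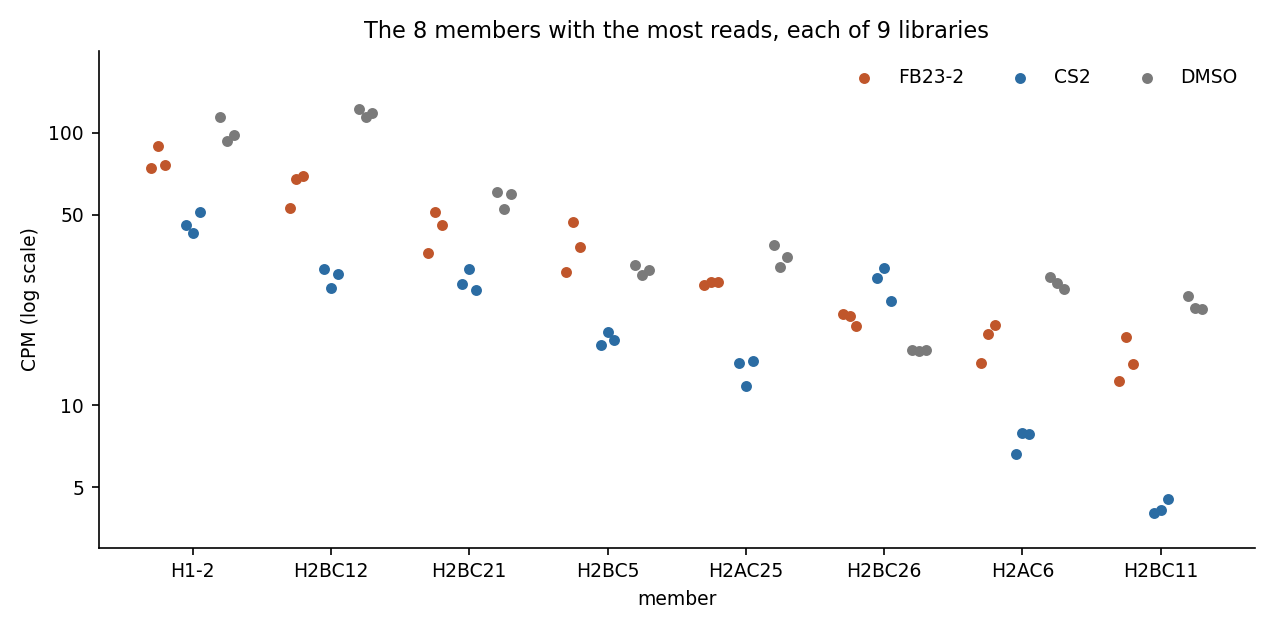
CPM (log axis) in each of the 9 libraries for the 8 members with the most reads, which together took 81.6% of member reads; colours give FB23-2, CS2 and DMSO from left to right within a member, and levels are not corrected for gene length. CS2 libraries are the lowest for all of these members but H2BC26, for which they are the highest.

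H3 genes, which encode a histone of the central tetramer, were lower with both compounds where called. H3C6 had 5.31, 4.75 and 5.92 CPM with FB23-2, 6.87, 7.95 and 7.05 CPM with CS2 and 11.9, 11.8 and 11.5 CPM with DMSO. The groups did not overlap, and the log2 fold change was -0.68 with CS2 (SE 0.13, edgeR adjusted p = 0.000214) and -1.14 with FB23-2 (SE 0.13, edgeR adjusted p = 6.13e-07). H3C8 had overlapping levels with the compounds, with 1.01, 1.18 and 1.46 CPM with FB23-2, 1.36, 1.21 and 0.998 CPM with CS2 and 2.71, 2.61 and 2.62 CPM with DMSO. It fell by 1.15 with CS2 (SE 0.23, edgeR adjusted p = 0.00035) and by 1.12 with FB23-2 (SE 0.23, edgeR adjusted p = 0.000353). H3C7 had 0.0596, 0.432 and 0.350 CPM with FB23-2, 0.678, 0.570 and 0.765 CPM with CS2 and 1.11, 0.922 and 0.488 CPM with DMSO. It was called with FB23-2 at -1.52 (SE 0.47, edgeR adjusted p = 0.0109), though not without DMSO replicate 1 (-1.26), and not with CS2 at -0.30 (SE 0.43).

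H3C10 and H3C12 fell with both compounds by values that a single library could undo. H3C10 was at -0.51 with CS2 (SE 0.19), lost without CS2 replicate 2 (-0.41) or DMSO replicate 1 (-0.32) and after correction for GC content and length (-0.42). With FB23-2 it was at -0.53 (SE 0.18), lost without FB23-2 replicate 1 (-0.42) or DMSO replicate 1 (-0.34). H3C12, of which 40.9% of windows occur in other genes, was at -0.75 with CS2 (SE 0.31, edgeR adjusted p = 0.0496), and leaving out any CS2 library, any DMSO library or FB23-2 replicate 3 ended that call, with values between -0.85 and -0.68, as did DESeq2 (-0.74). With FB23-2 it was at -0.84 (SE 0.30), lost without FB23-2 replicate 1 (-0.65) or DMSO replicate 1 (-0.77), with DESeq2 (-0.83), and after correction for GC content and length (-0.51).

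H4 genes, which encode the partner of H3, had 3 falls with CS2 and 1 with FB23-2 among 8 tested. H4C16, on chromosome 12 and apart from the clusters, had 1.25, 1.39 and 1.05 CPM with FB23-2, 1.83, 2.08 and 1.60 CPM with CS2 and 2.55, 3.82 and 2.24 CPM with DMSO. Treated libraries all lay below DMSO libraries. It fell by 1.20 with FB23-2 (SE 0.24, edgeR adjusted p = 0.000345) and by 0.63 with CS2 (SE 0.24, edgeR adjusted p = 0.0312), but the CS2 call was lost without CS2 replicate 1 (-0.63) or 3 (-0.54) or DMSO replicate 2 (-0.39), and with DESeq2 (-0.63). H4C8 had 5.46, 7.26 and 5.89 CPM with FB23-2, 5.66, 5.23 and 5.89 CPM with CS2 and 7.68, 7.25 and 7.46 CPM with DMSO. It fell by 0.42 with CS2 (SE 0.15, edgeR adjusted p = 0.0223), which was lost without CS2 replicate 2 (-0.37) or DMSO replicate 1 (-0.39) or 3 (-0.42), and with FB23-2 it was at -0.26 (SE 0.14), called only without FB23-2 replicate 2 (-0.39). H4C9 was at -0.82 with CS2 (SE 0.32, edgeR adjusted p = 0.0382), with libraries overlapping DMSO. That call was lost without CS2 replicate 2 (-0.66) or 3 (-0.60) or DMSO replicate 1 (-0.61) or 3 (-0.79), with DESeq2 (-0.81) and after correction for GC content and length (-0.71). With FB23-2 the gene was at 0.35 (SE 0.29), not called. H4C15, of which 97.2% of windows occur in another gene, was not called in any comparison with all 9 libraries. Between FB23-2 and CS2 it was at 0.50, and without CS2 replicate 2 it was called higher with FB23-2 at 1.47.

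Set directly against each other, FB23-2 left 13 members higher and 6 lower than CS2, and 23 were not called. Among all genes 29.7% were higher and 30.0% lower with FB23-2 than with CS2 (59.6% called), beside 31.0% higher and 14.3% lower among the tested members, so the share of higher members was near that of all genes. The largest difference was that of H2BC11, at 1.81 (SE 0.14, edgeR adjusted p = 1.6e-09), followed by H2AC11 at 1.29 (SE 0.19, edgeR adjusted p = 6.05e-06) and H2AC6 at 1.22 (SE 0.13, edgeR adjusted p = 1.02e-07). H4C9 at 1.17 (SE 0.31), H1-3 at 1.17 (SE 0.28) and H2BC5 at 1.14 (SE 0.12) were also higher with FB23-2. The 6 lower members were H4C4 at -1.28 (SE 0.50), H3C7 at -1.21 (SE 0.49), H2AC20 at -0.90 (SE 0.34), H2BC9 at -0.88 (SE 0.20), H3C6 at -0.46 (SE 0.14) and H2BC26 at -0.45 (SE 0.11).

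Of those 6, H2BC9, H3C6 and H2BC26 were called in every alternative setting in which they were tested, while the others each lost the call in some. H4C4 was not called without CS2 replicate 1 (-1.25) or 2 (-1.14) or FB23-2 replicate 3 (-0.83). H3C7 was not called without CS2 replicate 1 (-1.21) or 3 (-1.11) or FB23-2 replicate 1 (-0.76), and H2AC20 was not called without CS2 replicate 3 (-0.61) or FB23-2 replicate 1 (-0.83) or 3 (-0.66). Correction for GC content and length also ended these calls, at -1.08 for H4C4, -0.86 for H3C7 and -0.50 for H2AC20, and so did DESeq2. H3C8, H3C10 and H3C12 gave no called difference between the compounds, with 95% intervals of -0.48 to 0.54, -0.42 to 0.37 and -0.77 to 0.58 on the log2 scale. Those intervals do not show equal levels.

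Members for which a longer transcript is annotated took most of the member reads. A longer form was counted where a transcript in GENCODE release 29 runs over 200 bases past the stop codon or the RefSeq gene spans over 1000 bases. By that rule 27 members have one, 24 of them were tested, and they took 73.8% of member reads. Their share of member reads was 72.1% to 75.3% in FB23-2 libraries, 70.0% to 74.4% in CS2 libraries and 73.7% to 75.0% in DMSO libraries, so the groups overlapped. With CS2, 17 of the 24 fell and 1 rose, against 5 and 0 of the 18 tested members with no such form. The shares that fell were 70.8% and 27.8%, beside 25.3% of all genes tested, so the second share was near that of all genes. With FB23-2, 10 of the 24 fell and 2 rose, against 6 and 1 of the 18. The shares that fell were 41.7% and 33.3%, beside 26.7% of all genes tested. The sums of both sets moved alike: 0.736 of the DMSO mean with FB23-2 and 0.456 with CS2 for members with a longer form, against 0.773 with FB23-2 and 0.511 with CS2 for members without. The difference in calls between the sets was not tested, and members without a longer form have fewer reads. H1-2 has no longer form by this rule and holds most of the reads of that set. Counts per gene do not tell which end a read came from.

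Most H2A and H2B genes stand head to head in pairs that share an upstream stretch. There are 12 such pairs here, with 193 to 247 bases between the starts, and both genes were tested in 6. Both members fell with CS2 in the pairs H2AC6 and H2BC4 (-1.91 and -0.88), H2AC8 and H2BC8 (-1.23 and -1.02), and H2AC11 and H2BC11 (-1.26 and -2.47). Of these, H2BC4 was called at an edgeR adjusted p of 0.044, and leaving out CS2 replicate 2 (-0.72) or 3 (-0.81), or DMSO replicate 1 (-0.88), 2 (-0.92) or 3 (-0.83), ended that call, as did DESeq2 (-0.87) and correction for GC content and length (-0.73). H2AC20 and H2BC21 both fell with FB23-2, at -1.45 and -0.37. H2AC25 and H2BC26 were called in opposite directions with both compounds, at -1.38 and 0.84 with CS2 and at -0.33 and 0.39 with FB23-2. In H2AC15 and H2BC15 the H2A gene was called lower with both compounds, and H2BC15 was not called, at -0.01 with CS2 (SE 0.20) and 0.46 with FB23-2 (SE 0.19, edgeR adjusted p = 0.053). With FB23-2, H2BC15 was called higher without FB23-2 replicate 1 (0.65) and without mitochondrial genes (0.48). The same held with RLE scaling (0.47) and with a mean of at least 1 CPM (0.47). The H2AC15 exon overlaps the annotated H2BC15 gene, which bears on how their reads were counted.

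**Figure D4:**
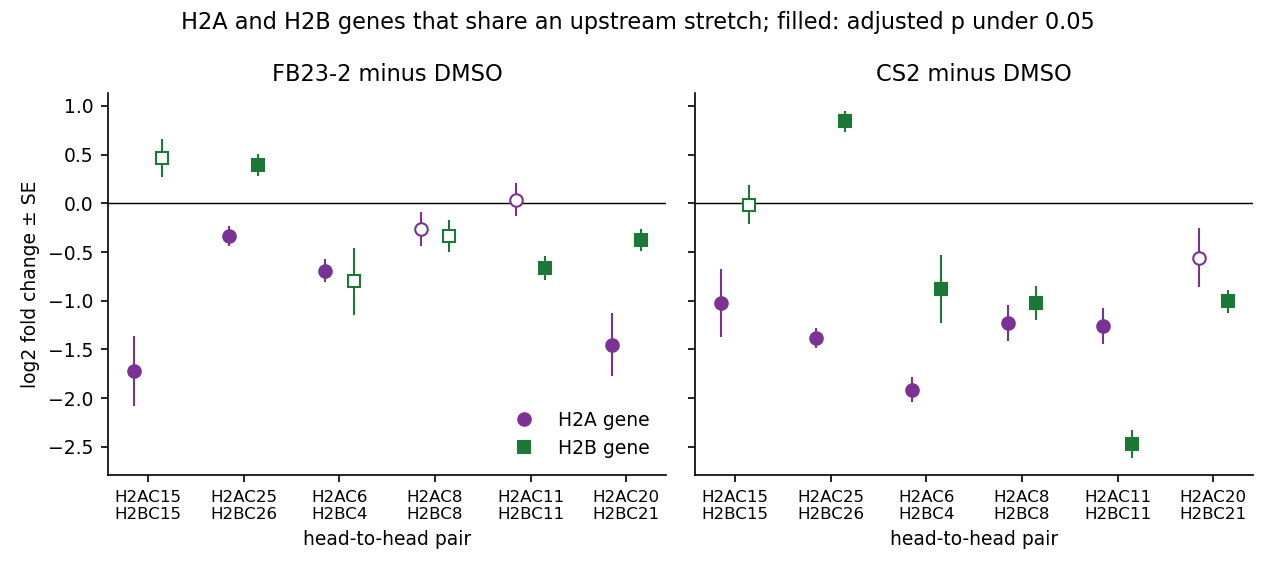
Log2 fold change with its SE for the 6 head-to-head pairs with both genes tested, FB23-2 minus DMSO on the left and CS2 minus DMSO on the right; circles are H2A genes, squares H2B genes, and filled symbols have an edgeR adjusted p under 0.05. The members of the pair H2AC25 and H2BC26 lie on opposite sides of 0 in both panels.

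The stretch between the starts is shown for the pair that moved in opposite directions and for the 2 pairs that, among those with both genes tested, hold the largest falls with CS2. The sequences are from RefSeq (GRCh38.p14), plus strand, and end where the plus-strand gene starts. Capitals mark the octamer ATTTGCAT, the box CCAAT and the box TATAAA on either strand. Matches were counted separately and may overlap, and an overlapping match is not capitalised in full. In the stretch of H2BC11 and H2AC11, a plus-strand TATAAA overlaps the last marked box and runs on into lower case.
H2AC25 and H2BC26, chr1:228457874-228458102: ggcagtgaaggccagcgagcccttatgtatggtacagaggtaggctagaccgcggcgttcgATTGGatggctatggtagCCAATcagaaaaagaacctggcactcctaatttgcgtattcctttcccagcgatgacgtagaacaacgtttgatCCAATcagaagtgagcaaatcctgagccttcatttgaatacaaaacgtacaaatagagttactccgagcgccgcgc
H2BC4 and H2AC6, chr6:26123927-26124171: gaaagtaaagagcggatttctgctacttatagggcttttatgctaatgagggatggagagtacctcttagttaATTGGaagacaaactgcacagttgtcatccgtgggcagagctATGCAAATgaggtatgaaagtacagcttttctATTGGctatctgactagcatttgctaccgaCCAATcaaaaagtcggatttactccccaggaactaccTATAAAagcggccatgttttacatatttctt
H2BC11 and H2AC11, chr6:27132796-27133042: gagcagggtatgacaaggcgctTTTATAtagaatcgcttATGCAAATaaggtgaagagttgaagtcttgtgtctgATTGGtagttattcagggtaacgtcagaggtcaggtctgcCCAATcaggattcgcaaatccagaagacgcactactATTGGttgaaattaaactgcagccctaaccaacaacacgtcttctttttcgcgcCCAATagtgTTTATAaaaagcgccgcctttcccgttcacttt
The stretches of H2BC4 and H2AC6 and of H2BC11 and H2AC11 each hold 1 octamer, and that of H2AC25 and H2BC26 holds 3 CCAAT boxes but no octamer and no TATAAA box. A match is a description and not a binding site.

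Over the 64 members with a RefSeq promoter (250 bases before to 50 after the start), the octamer occurs in 14 of 18 H2B genes, 11 of 16 H2A genes, 1 of 11 H3 genes, 0 of 6 H1 genes and 0 of 13 H4 genes, against 1.77% of 35116 promoters. The CCAAT box occurs in all H1, H2A, H2B and H3 promoters and in 3 of 13 H4 promoters, against 34.6% of all promoters. The TATAAA box occurs in 42 of the 64, against 11.5% of all. Among tested H2B genes, 8 of the 10 with the octamer fell with CS2 and 5 fell with FB23-2, and none rose. The 3 tested H2B genes without it are H2BC5, H2BC15 and H2BC26, of which 1 fell and 1 rose with CS2, and 2 rose with FB23-2. Among tested H2A genes, 3 of 6 with the octamer and 2 of 5 without it fell with CS2, 2 of 6 and 2 of 5 fell with FB23-2, and none rose. Over all genes tested, 25.3% fell and 24.3% rose with CS2, and 26.7% fell and 25.4% rose with FB23-2. With so few genes in each set, no difference by octamer is read from these counts. The octamer split was made after the values were seen and carries no test.

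Histone genes outside the replication-dependent set were mostly lower with FB23-2, whereas with CS2 more of them rose than fell. Most of these genes make polyadenylated mRNAs and are not tied to S phase. Of 11 of them, all tested, 2 fell and 5 rose with CS2, and 8 fell and 1 rose with FB23-2. That is 18.2% lower and 45.45% higher with CS2, beside 25.3% and 24.3% of all genes tested. With FB23-2 it is 72.7% lower and 9.09% higher, beside 26.7% and 25.4% of all genes tested. H2AJ, an H2A variant, had 36.2, 29.8 and 32.5 CPM with FB23-2, 93.8, 90.7 and 89.1 CPM with CS2 and 35.4, 33.5 and 35.7 CPM with DMSO. It rose with CS2 by 1.39 (SE 0.09, edgeR adjusted p = 1.8e-10) and was not called with FB23-2, at -0.09 (SE 0.09).

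H2AX, the variant phosphorylated at DNA breaks, was called in opposite directions, at -0.38 with FB23-2 (SE 0.08) and 0.34 with CS2 (SE 0.08), though correction for GC content and length ended both calls, at -0.04 and 0.18. H3-3B, which with H3-3A encodes H3.3, was at -0.47 with FB23-2 (SE 0.08) and 0.30 with CS2 (SE 0.08), both called. H3-3A was called with FB23-2 at -0.45 (SE 0.08) and not with CS2 at 0.07 (SE 0.08). H1-10 was likewise at -0.47 with FB23-2 (SE 0.08) and 0.28 with CS2 (SE 0.08), both called, and the same correction ended both, at -0.08 and 0.12. CENPA, the H3 variant of centromeres, fell with both, at -0.81 with FB23-2 (SE 0.10) and -0.47 with CS2 (SE 0.10). MACROH2A1 fell with both as well, at -0.62 with FB23-2 (SE 0.07) and -0.24 with CS2 (SE 0.07), but with the correction the CS2 value turned to 0.18 and was called. MACROH2A2 fell with FB23-2 at -0.60 (SE 0.09). H2AZ1 was not called with either, at -0.26 with FB23-2 (SE 0.18) and 0.42 with CS2 (SE 0.18). It was called with CS2 when FB23-2 replicate 2 (0.43) or 3 (0.43) was left out. A fit of the CS2 and DMSO libraries alone also called it with CS2, at 0.43 (edgeR adjusted p = 9.25e-06). Between the compounds, 10 of the 11 (90.9%) were lower with FB23-2 than with CS2 and none was higher. Among all genes tested, 30.0% were lower and 29.7% higher. H2AJ was the furthest of the 11, at -1.47 (SE 0.09).

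Of 19 genes for histone gene transcription, 3′ end processing and histone mRNA decay, all tested, 7 rose and 2 fell with FB23-2, and 7 rose and 7 fell with CS2, that is 36.8% and 10.5% with FB23-2 and 36.8% each way with CS2, to be read against the shares of all genes given above. SLBP, the stem-loop binding protein, had 110.8, 137.2 and 123.4 CPM with FB23-2, 151.9, 168.2 and 178.2 CPM with CS2 and 108.4, 108.6 and 105.0 CPM with DMSO. Its level was thus higher where the histone sum was lowest: it rose by 0.63 with CS2 (SE 0.08, edgeR adjusted p = 4.33e-06) and by 0.21 with FB23-2 (SE 0.08, edgeR adjusted p = 0.047). The FB23-2 call of SLBP was lost without CS2 replicate 2 (0.21), FB23-2 replicate 2 (0.13) or 3 (0.23), or DMSO replicate 1 (0.21), 2 (0.21) or 3 (0.19), and with DESeq2 (0.22). CASP8AP2 (FLASH), a cofactor in stem-loop processing, rose by 0.54 with FB23-2 (SE 0.08) and by 0.55 with CS2 (SE 0.08). NPAT, the shared activator of histone genes, rose by 0.27 with FB23-2 (SE 0.09, edgeR adjusted p = 0.0215) and by 0.23 with CS2 (SE 0.09, edgeR adjusted p = 0.0448). The FB23-2 call of NPAT was lost without FB23-2 replicate 2 (0.17) or DMSO replicate 1 (0.22), and after correction for GC content and length (0.09). Its CS2 call was lost without CS2 replicate 2 (0.19) or 3 (0.25) or DMSO replicate 1 (0.19), 2 (0.25) or 3 (0.26), and with DESeq2. SRRT and UPF1, with roles at the cap and in histone mRNA decay, were the 2 that fell with FB23-2, at -0.91 (SE 0.08) and -0.81 (SE 0.08), while TUT4, an enzyme that adds uridines, rose by 0.61 (SE 0.08). With CS2 the lowest were POU2F1, the octamer-binding factor Oct-1, at -0.96 (SE 0.11), CPSF3, the nuclease that cuts histone pre-mRNA, at -0.76 (SE 0.09), and TUT7 at -0.62 (SE 0.10), and CSTF2 rose by 0.50 (SE 0.09). CTIF rose with FB23-2 by 0.47 (SE 0.08).

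S phase genes more often rose than fell with CS2. Of 25 replication genes, all tested, 16 rose and 2 fell with CS2, and 7 rose and 8 fell with FB23-2. With CS2 that is 64% higher and 8% lower, beside 24.3% and 25.3% of all genes tested. With FB23-2 the shares, 28% higher and 32% lower, were near those of all genes. Subunits of the GINS complex, part of the replicative helicase, were among the most changed: GINS4 rose by 0.67 with FB23-2 (SE 0.11) and 1.09 with CS2 (SE 0.11), GINS2 rose by 0.95 with CS2 (SE 0.08), and GINS3 fell by 0.77 with FB23-2 (SE 0.14) and by 0.44 with CS2 (SE 0.14). The CS2 call of GINS3 was lost without CS2 replicate 1 (-0.38) or DMSO replicate 3 (-0.35). E2F1, an activator of S phase genes, rose by 0.76 with CS2 (SE 0.08). With FB23-2, CCNE1 (cyclin E1) fell by 1.22 (SE 0.10) and MCM5 by 0.67 (SE 0.07), while PRIM1 rose by 0.83 (SE 0.11) and CDT1 by 0.50 (SE 0.09). Between the compounds, 19 of the 25 were lower with FB23-2 than with CS2 and 2 were higher. That is 76% and 8%, beside 30.0% lower and 29.7% higher among all genes tested. CCNE1 was at -1.68 (SE 0.10), GINS2 at -0.92 (SE 0.08) and PCNA at -0.80 (SE 0.07). These lists differ across the same groups as the histone members; their part in the histone result was not tested.

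Of 21 histone chaperones and chromatin assembly factors, all tested, 5 rose and 5 fell with FB23-2, and 10 rose and 5 fell with CS2. The shares of 23.8% each way with FB23-2 and of 23.8% lower with CS2 were near those of all genes tested (25.4% higher and 26.7% lower with FB23-2, 25.3% lower with CS2), while 47.6% rose with CS2, beside 24.3% of all genes. TONSL, which reads new histones at replication forks, rose by 0.42 with FB23-2 (SE 0.11) and by 1.56 with CS2 (SE 0.11). ASF1B, the chaperone of H3 and H4 tied to proliferation, rose by 1.33 with CS2 (SE 0.09), and its relative ASF1A fell by 0.51 with CS2 (SE 0.10). MMS22L, the partner of TONSL, was called in opposite directions, at 0.34 with FB23-2 (SE 0.09) and -0.58 with CS2 (SE 0.09). NAP1L1, a chaperone of H2A and H2B, was also opposite, at 0.57 with FB23-2 (SE 0.10) and -0.55 with CS2 (SE 0.10), the CS2 call being lost after correction for GC content and length (-0.09). With FB23-2 the lowest were SSRP1 of the FACT complex at -0.69 (SE 0.06), HIRA at -0.56 (SE 0.10) and NAP1L4 at -0.49 (SE 0.07), and DAXX rose with CS2 by 0.49 (SE 0.07). Between the compounds 13 of the 21 were lower with FB23-2 than with CS2 and 4 were higher. That is 61.9% and 19.05%, beside 30.0% and 29.7% of all genes tested.

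**Figure D5:**
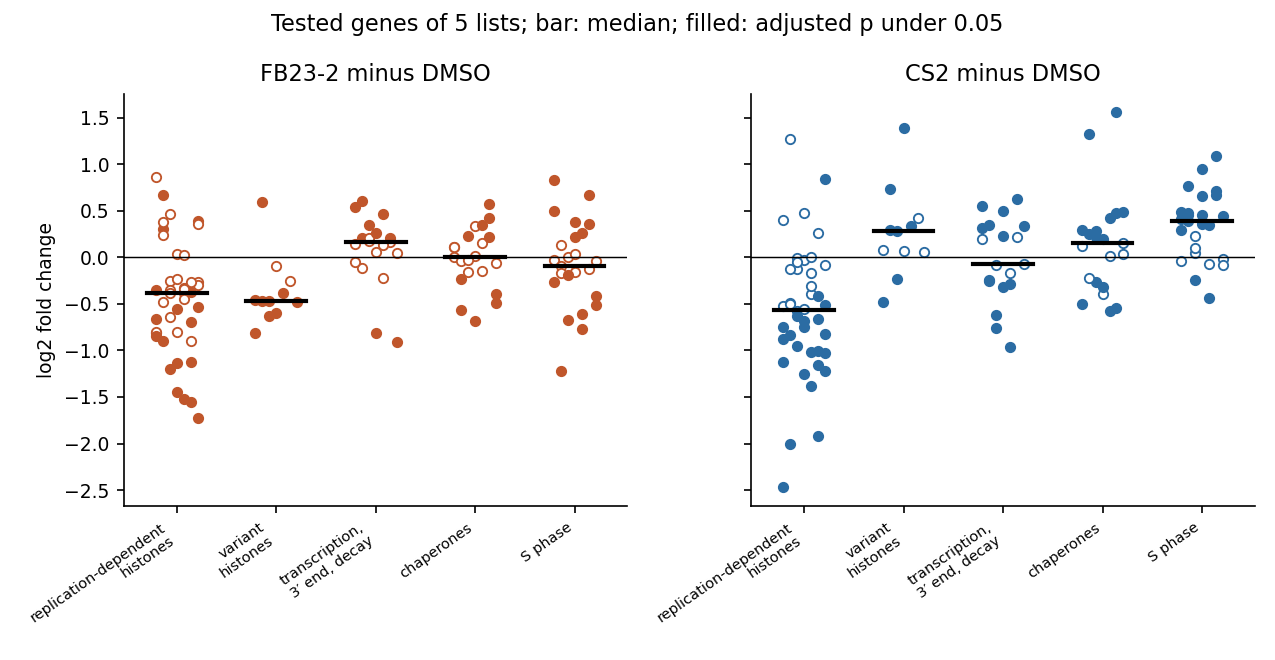
Log2 fold change of each tested gene in the replication-dependent histone genes and 4 further lists, FB23-2 minus DMSO on the left and CS2 minus DMSO on the right; the bar is the median of a list and filled points have an edgeR adjusted p under 0.05. The histone members have the lowest median with CS2, at -0.56, while the S phase genes have the highest, at 0.39.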

How the data were processed

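RNA of H69 cells was sequenced in 9 libraries, 3 each with FB23-2, CS2 and DMSO; the 6 samples of the line H82 are not analysed here. The authors deposited a table of raw counts. Per the labels' protocols, TRIzol was used to extract RNA, and the library kit was Hieff NGS Ultima Dual-mode mRNA. The submitters' processing notes name hg38. How reads were aligned, and by which tool, annotation and strand rule they were counted, is not given in the sources used here. The counts may therefore split reads of near-identical copies and overlapping genes in unknown ways. The columns headed FB23 were read as FB23-2.

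Counts were tested in R 4.3.3 with edgeR 4.0.16: filterByExpr by group (minimum count 10, minimum total 15), TMM scaling, and a single robust quasi-likelihood fit of all 9 libraries with group means and no covariate. Benjamini-Hochberg adjustment covered all 19781 genes tested, and the SE is the size of the log2 fold change over the root of F. CPM are TMM-scaled, and counts below the filter give no test. The tests were tried on simulated data. No pair of libraries of a group agreed within sampling noise.

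Of the members, 66 were matched to GENCODE release 29 by ID and 4 by older name; 24 share over 10% of their 50-base windows with another gene. The members and lists were chosen with earlier results of these data known. Named members are the 4 of each histone type with the highest mean CPM, the 6 largest falls and rises among called members of each comparison, and those called in opposite directions. Of each further list, up to 3 called genes a direction and 9 set genes are named. Some items under these rules are not reported here. Alternatives were each library left out, DESeq2 1.42.0, a replicate block, a correction for GC content and length (alone and with that block), RLE scaling or none beyond library size, a mean of at least 1 CPM in place of the filter or no filter, removal of mitochondrial genes, and a fit of the compared groups alone.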

Additional observations from a re-analysis of the deposited data

How the results depend on the processing

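Sums of all members and of each type kept their direction in every alternative tried for them. Members called lower numbered 17 to 22 with CS2, 11 to 17 with FB23-2 and 4 to 8 between the compounds over all alternatives, and with DESeq2 they were 17, 15 and 4. Members called higher with CS2 were 1 to 2 on leaving out each library, 2 without CS2 replicate 3. The member added there was not among the 42 tested with all 9 libraries. Members called higher with FB23-2 were 1 to 3, with 1 left without DMSO replicate 1 or without DMSO replicate 3. Of the calls, 16 of 23 with CS2, 10 of 19 with FB23-2 and 15 of 19 between the compounds held in every alternative in which they were tested. No member reversed. Of the genes in the further lists, MACROH2A1, CPSF2, ATRX and NPAT reversed with the correction for GC content and length. With CS2 against DMSO, MACROH2A1 turned to 0.18, CPSF2 to 0.20 and ATRX to 0.15, and between the compounds NPAT turned to -0.34, CPSF2 to -0.39 and ATRX to -0.045. With that correction and the replicate block together the values were 0.18, 0.20 and 0.15 with CS2 and -0.34, -0.39 and -0.044 between the compounds. The cause was not tested. That correction also gave 12 members lower with FB23-2, against 16. The replicate block gave 20 lower with CS2 and 16 lower and 4 higher with FB23-2. The same-numbered libraries of CS2 and FB23-2 correlated in their deviations from the group means at 0.17, 0.12 and 0.05, each the highest of its CS2 library with any FB23-2 library, but those with DMSO lay between -0.03 and 0.02, so the numbers were not taken to pair the samples. For 28 members the counts were too few for a test, and no cause of the low counts was tested.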

Other observations

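Of 13 pseudogenes and other noncoding relatives named like the members, H2BC27P and H2AC9P had enough counts for a test. H2BC27P had 1.46, 1.73 and 1.95 CPM with FB23-2, 2.62, 2.72 and 2.79 CPM with CS2 and 1.21, 1.05 and 1.71 CPM with DMSO. It lies near H2BC26 on chromosome 1 and, like it, was called higher with CS2 than with DMSO, at 1.02 (SE 0.23, edgeR adjusted p = 0.00109). H2BC27P was not called with FB23-2, at 0.36 (SE 0.23), except after correction for GC content and length, which gave 0.67 and a call. Of the windows of H2BC26, 9.50% also occur in other genes, 1.21% in other members. How reads were split between H2BC26 and H2BC27P is not known. Whether the 2 rises are independent was therefore not tested. H2AC9P had 0.805, 0.767 and 0.467 CPM with FB23-2, 0.118, 0.134 and 0.0998 CPM with CS2 and 0.579, 0.413 and 0.289 CPM with DMSO. It was called lower with CS2, at -1.82 (SE 0.52, edgeR adjusted p = 0.00688), from 3 or 4 reads in each CS2 library, and was not called with FB23-2, at 0.68 (SE 0.40).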
